A study of Mus musculus with 12 samples.

Results

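The genes examined here encode 43 plasma proteins that the liver secretes, most of them glycoproteins of blood coagulation and complement. They were chosen by name, as a list of gene symbols, and all 43 were present among the 24421 gene rows of the count tables. By role they comprise 3 fibrinogen chains, 6 vitamin K dependent clotting proteins, 6 cofactor, contact and cross-linking factors, 3 clotting inhibitors, 3 proteins of fibrinolysis, 8 carriers and fetuins, 9 proteins of complement initiation and its convertases, and 5 proteins of the terminal complement pathway.

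Clotting is a cascade of serine proteases that ends when thrombin cuts fibrinogen into fibrin, and serpin inhibitors and plasmin limit and dissolve the clot. Complement is a related cascade in which proteases of the classical, lectin and alternative pathways cleave C3, after which the terminal components assemble into a pore in the target membrane. Hepatocytes make most of these proteins and send them through the endoplasmic reticulum and Golgi, where their N-linked glycans are trimmed. Man1a2 encodes a Golgi alpha-mannosidase that takes part in this trimming.

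Livers and lungs of newborn mice, Man1a2+/+ (WT) or Man1a2-/- (null), were taken 30 to 60 min after birth and their RNA was sequenced, in 12 libraries or 3 per tissue and genotype. The null allele, Man1a2tm1.1Ahe, lacks exon 2 in every cell from the germline on, and both genotypes came from matings of heterozygotes. Polyadenylated, strand-specific libraries were read as pairs of 75 bp, and the deposited values are whole numbers of reads per gene. The labels number the replicates but do not state whether a litter or a day was shared, and since whole tissue was used, a change in the number of hepatocytes and a change in RNA per hepatocyte cannot be told apart.

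The libraries held between 26759463 and 42914295 counted reads, so that 3 reads stood at 0.0699 to 0.112 CPM (counts scaled to a common library total). For Man1a2, WT livers had 71.5, 40.7 and 56.8 CPM and null livers 40.2, 36.7 and 33.7 CPM, a log2 difference of −0.47 (edgeR, adjusted p = 0.0809). WT lungs had 141.3, 104.6 and 147.7 CPM and null lungs 55.9, 59.4 and 63.4 CPM (log2 difference −1.01, adjusted p = 0.0614, edgeR). Counts over the whole gene include the exons that the null allele keeps. The library labelled null lung 1 stood apart from the other lungs: 10 alveolar epithelial markers summed to 483.7 CPM in it and to between 24810 and 31510 CPM in the others, with Sftpc at 34.8 CPM but Hopx at 242.5 CPM. Airway markers, at 3968 CPM, were within the 3486 to 5461 CPM of the other lungs and above the 13.3 to 58.7 CPM of the livers. In the same library 8 muscle markers, genes of heart muscle among them, summed to 17620 CPM against 111.7 to 365.6 CPM in the other lungs. Those muscle markers also reached 5297 CPM in null liver 1, against 3.56 to 4.93 CPM in the other livers. The tests of the 43 genes and of the other lists that include these libraries are therefore also given without them.

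The 43 genes took up between 22.42% and 26.52% of all counted reads in the livers and between 0.0836% and 0.318% in the lungs. Per length, as TPM (transcript abundance scaled to a common total, computed from the counts and the exon length of each gene), they ranged over more than 4 orders of magnitude in WT liver. Alb, serum albumin, was first among all genes at 101100 ± 13290 TPM (SD, n = 3). Ahsg, fetuin-A, followed at 40900 ± 1599 TPM, and then Trf, the iron carrier transferrin, at 33380 ± 1783 TPM. In all, 4 of the 43 were among the 10 most abundant genes of WT liver, 8 among the top 20 and 15 among the top 100. None of the 43 was among the top 100 of WT lung.

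The fibrinogen chains, which join in equal numbers in the secreted molecule, had close levels per length in WT liver. Fgg stood at 8254 ± 971.3 TPM, Fga at 6973 ± 1048 TPM and Fgb at 6170 ± 180.6 TPM (SD, n = 3), and Fga and Fgb differed by less than the SD of Fga. The protease zymogens were far lower: F2, prothrombin, had 2023 ± 194.5 TPM, whereas F9, the factor missing in haemophilia B, had 78.4 ± 5.59 TPM. Among the complement genes, C3 had 4098 ± 180.9 TPM, while the pore proteins C6 and C9 were the lowest of all 43 at 5.89 ± 0.853 and 1.58 ± 0.414 TPM.

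Several of these genes lie side by side in GRCm38, the build to which the names mm10 and GENCODE M21 refer. Fgg, Fga and Fgb occupy chromosome 3 from 83007724 to 83049863, 17.5 Mb from Man1a2. Ahsg, Fetub, Hrg and Kng1 lie on chromosome 16 between 22891277 and 23082078. The other neighbours are F7 and F10 (1.5 kb apart) and F11 and Klkb1 (4.66 kb apart) on chromosome 8, C8b and C8a (11.13 kb apart) on chromosome 4, and Cfb and C2 (0.09 kb apart) on chromosome 17. Exons of Serpinc1, Masp2 and C2 overlap the opposite-strand genes Zbtb37, Tardbp and Zbtb12, and exons of Klkb1, Trf, C2 and Cfb overlap annotated same-strand transcripts. How reads in such overlaps were counted is not given in the sources used here, so the counts of these genes are uncertain to that extent. Kng1 and C1ra have near-identical copies, Kng2 and C1rb, with which reads could have been split.

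Promoters were available for 33 of the 43 genes, from RefSeq on GRCm38.p6, as 250 bases before and 50 bases after the start of each gene, and were searched for 5 motifs on both strands. Since 41 of these genes were higher in liver than in lung in the comparison given further on, the motifs were those of factors known for liver genes, chosen with results of these data known. GTTAAT occurred in 9 of the 33 promoters (27.3%) and in 8.24% of the promoters of 27025 genes. TTGCNNAA, a C/EBP motif, occurred in 14 of 33 (42.4%) against 12.2% of all. TGTTTAC of the FOXA factors was found in 4 (12.1%, against 4.05% of all), the TATAAA box in 6 (18.2% against 15.7%), and CAAAGTCCA of HNF4 in 0 (against 0.555%). No match of one motif overlapped a match of another, 19 of the 33 promoters held GTTAAT or TTGCNNAA, and Fga, Fgb, Alb and C1ra held both. These are matches of letters and were not tested as binding sites.

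Windows of 30 bases around some of these matches follow, 5′ to 3′ on the strand of the gene, for the abundant Alb and Fgb and for genes that recur below (GRCm38.p6). Capitals mark the match to GTTAAT, or to its reverse complement ATTAAC, in the first 5, and to TTGCNNAA or its reverse complement in the last 6.
Alb, plus strand, chr5:90460826-90460855: gaggtaagtatgGTTAATgatctacagtta
Fgb, minus strand, chr3:83049875-83049904: aaaatgtcaaatATTAACtaaagggaggta
F13b, plus strand, chr1:139501644-139501673: gacattgtaattATTAACttgttttgtcaa
C8a, minus strand, chr4:104876488-104876517: ccttggttactaGTTAATcacattgaatgg
C8b, plus strand, chr4:104766099-104766128: tactttacctgtATTAACcctctaaccctg
Alb, plus strand, chr5:90460765-90460794: tcaaacaacttTTTGGCAAagatggtatga
Fgb, minus strand, chr3:83049925-83049954: ctgggaagatgTTGCTCAAatgataaagca
F9, plus strand, chrX:59999429-59999458: agccctgacgcTTGCACAAtctcctaacaa
Hrg, plus strand, chr16:22950928-22950957: gatatagcataTTGCACAAatgatgatttt
C3, minus strand, chr17:57228163-57228192: aggaaactatgTTGCGAAAttttgggcagt
C9, plus strand, chr15:6445203-6445232: tttttggtttaTTGCATAAtgacactttgt
The GTTAAT matches of Alb, Fgb and F13b began 32, 29 and 51 bases before the RefSeq start, and those of C8a and C8b 107 and 206 bases before it. The C/EBP matches began 94 bases before the start in Alb, 80 in Fgb, 24 in F9, 133 in Hrg, 45 in C3 and 132 in C9.

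To ask where these genes were expressed at birth, WT liver was compared with WT lung. All 43 passed the test (edgeR, adjusted p under 0.05 and at least 1.2-fold), beside 77.0% of all genes tested, and 41 of them were higher in liver, beside 37.2% of all genes. The other 2, Pros1 and C6, were higher in lung, beside 39.8% of all genes. In all 43 the tissues did not overlap and the unadjusted p was under 0.05, beside 81.3% and 79.6% of all genes. DESeq2 called 35, beside 76.4%, and gave no adjusted p for the other 8. The median log2 difference of the 43 was 9.26, against −0.04 for all genes. The spread of the differences was wide, and the plot of liver against lung shows it by role.

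**Figure D1:**
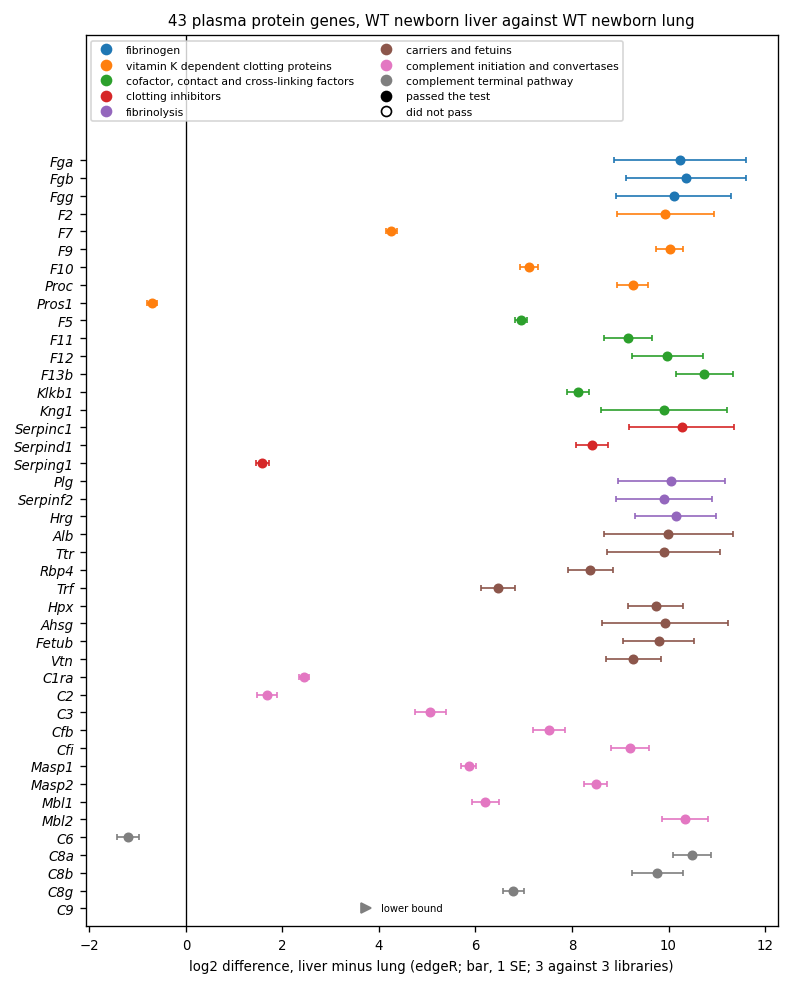
Log2 difference between WT liver and WT lung for the 43 genes, grouped by role, with the standard error as a bar; values to the right of the line are higher in liver. C6 and Pros1 lie left of 0, Serping1, C2 and C1ra lie below 3, and most other genes lie between 8 and 11; C9, at 0 in all WT lungs, is drawn at its lower bound of 3.74.

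The largest ratios belonged to genes of different roles that the lung hardly expressed. F13b, the carrier subunit of the fibrin cross-linking factor, had a log2 difference of 10.74 (SE 0.59), and C8a, a chain of the complement pore, 10.50 (SE 0.39). Fgb followed at 10.37 (SE 1.24), Mbl2, a mannose-binding lectin that starts the lectin pathway, at 10.35 (SE 0.47), Serpinc1, antithrombin, at 10.27 (SE 1.08), and Fga at 10.24 (SE 1.36). These 6 do not differ from each other beyond their standard errors. Those of F13b, C8a and Mbl2 rest on few lung reads. The 3 WT lungs held 29, 1 and 2 reads of F13b, 12, 1 and 1 of C8a, and 7, 0 and 1 of Mbl2, so WT lungs 2 and 3 were under the floor of 3 reads for these genes. The others had more reads but a wide spread between WT lungs, with 1442, 61 and 132 of Fgb, 1449, 40 and 107 of Fga, and 240, 13 and 16 of Serpinc1. WT lung 1 was the highest WT lung for all 6. Without it, the log2 differences were 13.3 for F13b, 12.8 for Fga, 12.6 for Serpinc1, 12.5 for Fgb, 12.4 for C8a and 12.3 for Mbl2, F12 stood among them at 12.7, and the median of the 43 was 10. The order of the largest ratios is therefore not settled by these libraries. C9 had no read in the 3 WT lungs, and against the floor of 3 reads in the shallowest of them it was at least 13.4-fold higher in liver. With C9 at this bound, the median of the 43 stayed at 9.26, and that of the 5 terminal complement genes was 6.78 in place of 9.09.

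Another 10 genes had the smallest ratios, and most of them belong to complement or to its control. Pros1, protein S, the cofactor that protein C uses to stop clotting, had 53.8, 67.9 and 62.5 CPM in WT livers and 97.9, 104.2 and 97.3 CPM in WT lungs. Every lung was above every liver, with a log2 difference of −0.70 (SE 0.10, edgeR adjusted p = 0.000149). C6, the second protein to join the complement pore, had 13.6, 12.5 and 10.4 CPM in livers and 34.9, 30.6 and 17.9 CPM in lungs, a log2 difference of −1.19 (SE 0.23, edgeR adjusted p = 0.00104). The groups did not overlap here either, but in the fit of all 12 libraries C6 missed the threshold (−1.21, adjusted p = 0.368).

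Serping1, the C1 inhibitor that restrains both complement and the contact system, had 492.3, 407.1 and 546.7 CPM in livers and 159.3, 157.5 and 166.7 CPM in lungs (log2 difference 1.58, SE 0.14). C2, the protease of the classical and lectin convertase, differed by 1.69 (SE 0.21), and C1ra, a protease of the first complement component, by 2.45 (SE 0.10). The next were F7, the clotting factor that tissue factor activates (4.26, SE 0.11), C3 (5.06, SE 0.32), Masp1, a protease of the lectin pathway (5.86, SE 0.16), Mbl1, the second mannose-binding lectin (6.20, SE 0.28), and Trf (6.46, SE 0.35). C3 still had 504.7, 289.4 and 330.8 CPM in the WT lungs, and Trf had 715.8, 530.8 and 608.5 CPM there. All of these differences passed the test by edgeR, with adjusted p-values between 4.79e-09 and 5.52e-05. TMM, the scaling used, takes most genes as equal between tissues. Scaling by total counts lowered the median difference of all genes by 0.787 to −0.83, and with it the log2 difference of Serping1 was 0.80 and that of C2 0.91, while Pros1 and C6 stayed below 0 at −1.49 and −1.98.

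The lung libraries were then compared with WT liver one by one. Expressed as a percentage of the WT liver mean (CPM of total counts), Alb stood at 0.436%, 0.0261% and 0.0403% in WT lungs 1, 2 and 3 and at 0.0524%, 0.402% and 0.149% in null lungs 1, 2 and 3. Thus WT lung 1 and null lung 2 were highest, and the genotypes overlapped. The median ratio of a gene's percentage to that of Alb in the same library was used to group the others, a grouping made after the values were seen. For 23 of the other 42 genes this ratio lay within 3-fold of Alb. They comprised all fibrinogen genes, F2, F9, Proc, the contact factors F11, F12 and Kng1, F13b, Serpinc1, Serpind1, the 3 genes of fibrinolysis, Ttr, Hpx, Ahsg, Fetub and Vtn, and Mbl2, C8a and C8b of complement. In all 23 the highest lungs were WT lung 1 and null lung 2, as they were in 32 of the 42.

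The 24 genes including Alb had a median of 0.41% of their WT liver level in WT lung 1 and 0.354% in null lung 2, but 0.0304% in WT lung 2, 0.0437% in WT lung 3, 0.0547% in null lung 1 and 0.132% in null lung 3. The spread between libraries of 1 genotype was therefore larger than any difference between the genotypes. Genes of hepatocytes that encode no secreted protein went the same way. Of 16 such markers, 13 lay within 3-fold of Alb by the same measure, with medians of 0.454% in WT lung 1 and 0.344% in null lung 2 and between 0.0408% and 0.104% in the other lungs. Whether liver RNA in a lung library had a part in these low levels was not tested.

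Another 11 genes stood more than 10 times higher than Alb on this scale: F7, Pros1, Serping1, Trf, C1ra, C2, C3, Masp1, Mbl1, C6 and C8g. These did not share one order of the lungs. Alb ranged over 16.7-fold between the 6 lungs, and the 11 genes ranged from less to far more than that. C1ra was within 26.9 and 31.0 CPM, a 1.15-fold range, and Serping1 within a 1.82-fold range. Pros1, C2, C3 and C8g ranged over 2.05-fold to 3.11-fold, Masp1 over 7.7-fold and Trf over 8.96-fold. F7, with 1 read in null lung 1, ranged over 128-fold and C6 over 451-fold, and Mbl1 had 0 reads in null lung 1. Between both sets lay F10, F5, Klkb1, Rbp4, Cfb, Cfi and Masp2, at 3 to 10 times the percentage of Alb. C9 had reads in 1 lung only.

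**Figure D2:**
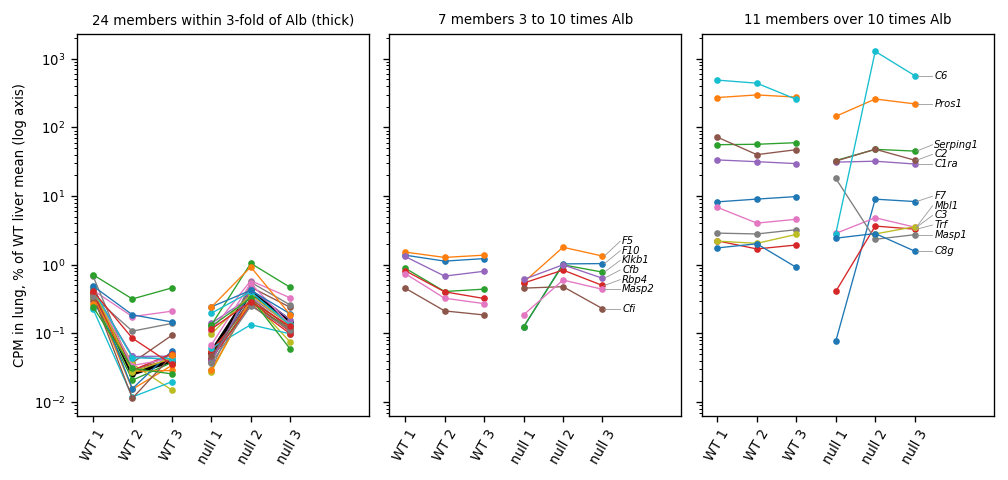
Level of each gene in each of the 6 lung libraries as a percentage of its mean in WT liver (log axis; values of 0 are not drawn; lines join points of 1 gene within a genotype and imply no order). In the left panel Alb (thick) and 23 genes are high in WT 1 and null 2; the middle panel holds 7 genes at 3 to 10 times Alb, and the right panel 11 genes that stand more than 10 times higher than Alb, among which C6, F7 and Trf are low in null 1 and Masp1 is high there.

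To ask whether loss of Man1a2 changed these genes in the liver, null livers were compared with WT livers. Of the 43 genes, 12 passed the test (27.9%), beside 26.9% of all 14343 genes tested, so the share called was that of the liver as a whole. Of these, 11 were higher in null liver: F2, F5, Klkb1, Serpind1, C1ra, C2, C3, Masp1, C8b, C8g and C9. Only Pros1 was lower. Among all genes the calls were even, at 13.5% higher and 13.4% lower. Most changes were small: the median log2 difference of the 43 was 0.25, against 0.02 for all genes, and 39 of the 43 lay above 0. At an unadjusted p under 0.05, 20 of the 43 passed, beside 41.4% of all genes, and in 22 genes (21 higher, 1 lower) the genotypes did not overlap, beside 46.6% of all genes (22.9% higher, 23.7% lower).

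The count of calls depended on single libraries and on scaling, and the plot of settings shows its range. Without WT liver 3 a single gene, F5, was called, beside 11.3% of all genes. Without WT liver 1 or null liver 2 there were 4, beside 14.8% and 23.3% of all genes. Without null liver 3 there were 7 (21.8% of all genes), and without WT liver 2 there were 8 (15.6%). Without null liver 1, the library with muscle markers, there were 10, beside 23.8% of all genes, with Pros1, Serpind1, C1ra and C8b no longer called. Upper-quartile and total-count scaling lowered the median of all genes by 0.108 and 0.133. The number called was then 5 and 7, beside 28.6% and 23.5% of all genes. Of all called genes, 50.1% were higher in null liver with TMM, 35.0% with upper-quartile factors, 31.7% with total counts and 62.8% when scaled to hepatocyte genes, so directions depend on the scaling. The median of the 43 lay above the median of all genes by 0.226 with TMM, and by 0.224, 0.23 and 0.227 with those other scalings. A change of scaling moves all genes by nearly the same amount, so these gaps cannot show whether the difference depends on scaling. With a library left out the gap ranged from 0.204 to 0.315.

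**Figure D3:**
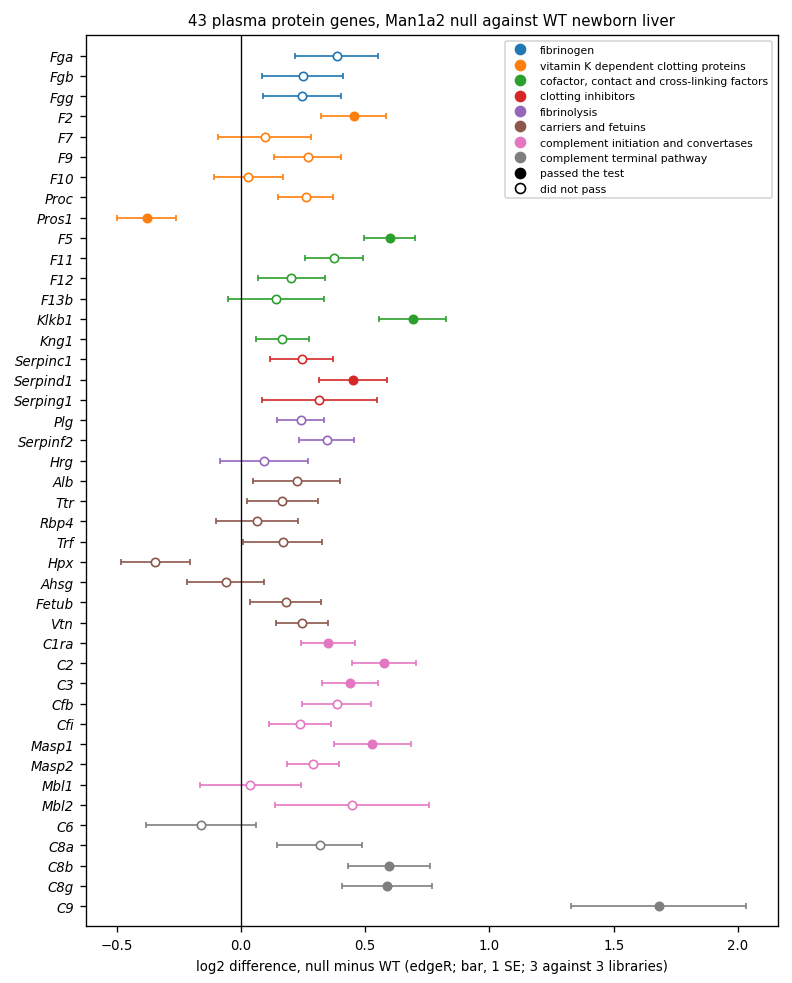
Log2 difference between null and WT liver for the 43 genes, grouped by role, with the standard error as a bar; filled points passed the test. The 12 filled points are Pros1, left of 0, and 11 genes between 0.35 (C1ra) and 1.68 (C9); fibrinogen, fibrinolysis and carrier genes have only open points.

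**Figure D4:**
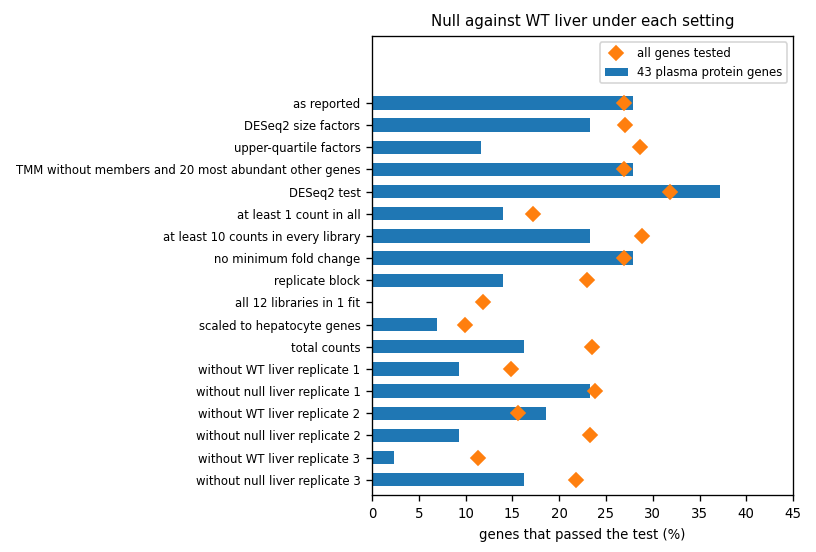
Percentage of the 43 genes (bars) and of all genes tested (diamonds) that passed the test in null against WT liver, under the reported setting and each alternative. The bar stands at 27.9% as reported, reaches its highest value with the DESeq2 test, and is at 0 in the fit of all 12 libraries; under most alternatives the diamond lies to the right of the end of the bar.

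Of the 6 cofactor, contact and cross-linking genes, F5 and Klkb1 were called higher (33.3%). Of all genes, 26.9% were called in either direction and 13.5% higher. F5, the cofactor with which factor Xa makes thrombin, had 214.6, 217.0 and 206.4 CPM in WT livers and 328.4, 302.3 and 334.8 CPM in null livers. All null livers were above all WT livers, with a log2 difference of 0.60 (SE 0.10, edgeR adjusted p = 0.00736), and F5 was called whichever library was left out. Its call was lost only in the fit of all 12 libraries and when scaled to hepatocyte genes, with adjusted p-values of up to 0.249. Klkb1, prekallikrein, a contact protease that frees bradykinin from kininogen, had 95.1, 84.3 and 76.5 CPM in WT and 119.3, 142.5 and 151.3 CPM in null livers. The difference was 0.69 (SE 0.14, edgeR adjusted p = 0.0108), and it missed the threshold without WT liver 3 and in the fit of all 12 libraries. Among the vitamin K dependent genes 2 of 6 were called (33.3%, beside 26.9% of all genes), F2 higher and Pros1 lower. F2 had 1841, 1656 and 1700 CPM in WT and 2059, 2348 and 2708 CPM in null livers, a difference of 0.45 (SE 0.13, edgeR adjusted p = 0.0388) that was called in 1 of the 6 fits with a library left out.

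Pros1 had 39.4, 49.1 and 45.2 CPM in WT livers and 37.0, 30.6 and 35.1 CPM in null livers. The groups did not overlap, but WT liver 1 and null liver 1 lay close together, and the difference of −0.38 (SE 0.12, edgeR adjusted p = 0.0499) stood at the threshold and was called in 1 of 6 fits with a library left out. F7, F9, F10 and Proc did not pass, with log2 differences between 0.03 and 0.27. F11, F12, F13b and Kng1 did not pass either, at 0.14 to 0.37. F11, the contact factor beside Klkb1 on chromosome 8, came closest (0.37, SE 0.12, edgeR adjusted p = 0.0503), with 109.1, 130.0 and 121.0 CPM in WT and 143.2, 167.1 and 156.5 CPM in null livers and no overlap.

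Of the clotting inhibitors, Serpind1, heparin cofactor II, which blocks thrombin, had 410.7, 532.9 and 440.6 CPM in WT livers and 645.9, 674.6 and 572.0 CPM in null livers. It differed by 0.45 (SE 0.14, edgeR adjusted p = 0.0461) and was called in 2 of 6 fits with a library left out. Serpinc1 and Serping1 did not pass (0.24 and 0.32). None of the 3 genes of fibrinolysis passed: Plg, plasminogen, differed by 0.24 (SE 0.10), Serpinf2, the plasmin inhibitor, by 0.34 (SE 0.11, edgeR adjusted p = 0.0520) and Hrg by 0.09 (SE 0.18).

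Fibrinogen did not pass in any of its chains. Fga had 9359, 7959 and 9740 CPM in WT livers and 10100, 10610 and 14600 CPM in null livers, a difference of 0.38 (SE 0.17, edgeR adjusted p = 0.123). Fgb had 9533, 10970 and 9978 CPM in WT and 10660, 10390 and 15140 CPM in null livers, a difference of 0.25 (SE 0.16, adjusted p = 0.292, edgeR). Fgg had 7609, 6845 and 7843 CPM in WT and 7407, 8188 and 10840 CPM in null livers (0.25, SE 0.16, adjusted p = 0.277 by edgeR). In each chain null liver 3 was the highest library, and it was also the one with the largest share of reads on the 43 genes and the lowest TMM factor, 0.873.

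The carriers and fetuins, which include the 3 most abundant of the 43, showed 0 of 8 calls by edgeR, beside 26.9% of all genes. At an unadjusted p under 0.05 there were 2 of 8, beside 41.4% of all, and by DESeq2 0 of 8, beside 31.8%. Alb had 85440, 106900 and 75170 CPM in WT livers and 100600, 88060 and 123700 CPM in null livers, with overlapping groups (0.22, SE 0.17, edgeR adjusted p = 0.365). Trf had 40370, 39590 and 38750 CPM in WT and 39470, 37830 and 56030 CPM in null livers (0.17, SE 0.16, adjusted p = 0.464 by edgeR), again with overlap. Ahsg had 28720, 33330 and 28380 CPM in WT and 28690, 23630 and 34320 CPM in null livers (−0.06, SE 0.15, edgeR adjusted p = 0.788). The sign of Ahsg turned when libraries were scaled to hepatocyte genes. Hpx, hemopexin, which binds free haem, was the lowest of the carriers at −0.34 (SE 0.14, edgeR adjusted p = 0.1000), and Ttr, Rbp4, Fetub and Vtn lay between 0.07 and 0.25. Summed over the 8 carriers, WT livers held 165100 to 191100 CPM of total counts and null livers 160200 to 197300 CPM.

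Among the 9 complement genes of initiation and the convertases, 4 were called higher (44.4%) and 0 lower. Of all genes, 26.9% were called in either direction and 13.5% higher. All 9 log2 differences lay above 0, with a median of 0.38. C2 had 70.7, 57.6 and 72.0 CPM in WT livers and 93.7, 93.7 and 111.0 CPM in null livers (0.57, SE 0.13, edgeR adjusted p = 0.0174), and lost its call without WT liver 3. C3, the protein on which all complement pathways meet, had 8718, 9284 and 9241 CPM in WT and 11290, 11910 and 13680 CPM in null livers. The groups did not overlap, and the difference of 0.44 (SE 0.11, edgeR adjusted p = 0.0268) was called in 2 of 6 fits with a library left out and under 9 of 11 other settings.

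Masp1 had 60.2, 71.2 and 51.7 CPM in WT livers and 74.1, 95.4 and 94.5 CPM in null livers, a difference of 0.53 (SE 0.15, edgeR adjusted p = 0.0408) that held in 2 of 6 fits with a library left out. C1ra had 83.6, 97.2 and 83.3 CPM in WT and 115.0, 115.5 and 106.0 CPM in null livers (0.35, SE 0.11, edgeR adjusted p = 0.0494, 1 of 6 fits). Cfb, the C2 counterpart of the alternative pathway and its neighbour on chromosome 17, missed the threshold at 0.38 (SE 0.14, edgeR adjusted p = 0.0746). Summed over the 9 genes, WT livers held 11710 to 12550 CPM of total counts and null livers 13960 to 14930 CPM, without overlap and with a ratio of means of 1.21. C3 alone averaged 9517 CPM of total counts in WT livers, so this sum mostly follows C3.

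Of the 5 terminal genes, 3 were called, all higher (60%). Of all genes, 26.9% were called in either direction and 13.5% higher. C8b, a chain of the pore protein C8, had 236.2, 299.2 and 203.2 CPM in WT livers and 371.4, 335.2 and 409.6 CPM in null livers (0.60, SE 0.16, edgeR adjusted p = 0.0341). C8g, another chain of C8, had 43.7, 37.9 and 32.4 CPM in WT and 44.4, 57.6 and 69.2 CPM in null livers (0.59, SE 0.18, edgeR adjusted p = 0.0469). C8a, which lies beside C8b on chromosome 4, did not pass (0.32, SE 0.17, edgeR adjusted p = 0.199), although its groups of 85.5, 136.5 and 116.5 CPM and 138.6, 144.0 and 138.9 CPM did not overlap. The calls of C8b and C8g each held in 1 of 6 fits with a library left out.

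C9, which forms the ring of the pore, had the largest difference of the 43, at the lowest level. It rose from 1.31, 1.89 and 1.02 CPM in WT livers to 6.52, 3.74 and 3.24 CPM in null livers, a log2 difference of 1.68 (SE 0.35, edgeR adjusted p = 0.0139). The highest value was in null liver 1, the library with muscle markers, and the call held without it but was lost without WT liver 1 and without WT liver 3. C6 did not pass (−0.16, SE 0.22, edgeR adjusted p = 0.617). Without null liver 1, 10 of the 43 genes were called, all higher, of which 8 were among the 12, beside 23.8% of all genes called.

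**Figure D5:**
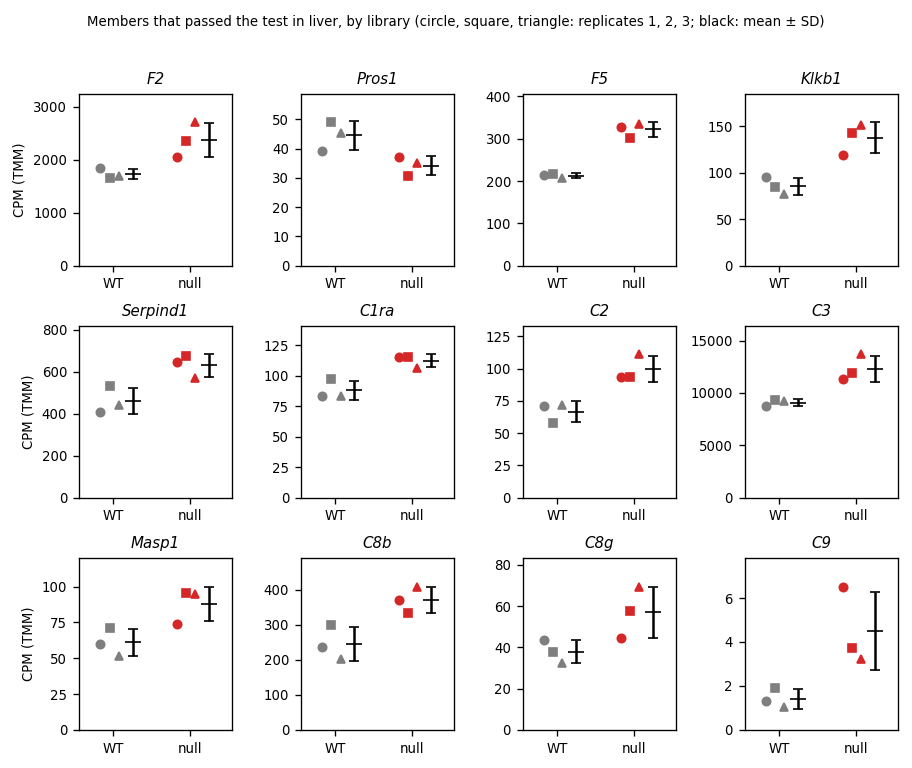
TMM-scaled CPM in each liver library for the 12 genes that passed the test in null against WT liver. Symbols mark replicates 1, 2 and 3, which by the labels share only a number between genotypes, and black bars the mean and SD of 3 libraries. The genotypes do not overlap in any of the 12 panels; C8g and Masp1 show the narrowest gaps relative to their levels, and the C9 axis ends below 8 CPM.

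Markers of hepatocytes and of other cells were summed in the same livers. The 16 intracellular and membrane hepatocyte genes summed to 13800 to 16470 CPM in WT livers and 10510 to 13750 CPM in null livers, lower in all null livers. Of the 16, 1 passed the test (6.25%, beside 26.9% of all genes), Asgr2, which was higher, and their median log2 difference was −0.14. When libraries were scaled to those genes, 3 of the 43 were called, all higher, beside 9.88% of all genes called. Neutrophil markers summed to 1964 to 3598 CPM in WT and 2316 to 4030 CPM in null livers, and macrophage markers to 605.5 to 643.4 CPM and 476.2 to 707.6 CPM, with overlap in both. Of 9 neutrophil genes, 2 were called (22.2%, beside 26.9% of all genes), Mpo (0.59, SE 0.15) and Elane (0.67, SE 0.15), both higher. All 9 neutrophil log2 differences lay above 0. Of 8 macrophage genes 2 were called (25%, beside 26.9% of all genes), Adgre1 higher (0.54, SE 0.16) and Mrc1 lower (−0.48, SE 0.11). Of 8 endothelial genes 2 were also called (25%), Pecam1 (0.52, SE 0.09) and Cdh5 (0.49, SE 0.09), both higher. Of these 8, however, 4 log2 differences lay above 0 and 4 below, with a median of 0.02, and DESeq2 called 2 higher and 2 lower. Endothelial markers summed to 432.6 to 485.5 CPM in WT and 444.5 to 470.9 CPM in null livers, with overlap. The part of these cells in the differences was not tested.

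In lung, 39 of the 43 genes had enough reads to be tested, and F9, Mbl2, C8a and C9 did not. None of the 39 passed (edgeR), 0 had an unadjusted p under 0.05 and DESeq2 called 0, beside 0.327%, 25.0% and 15.7% of all genes tested. The edgeR calls among all genes were 0.0898% higher and 0.237% lower. Standard errors were large: Alb had 392.2, 23.1 and 35.9 CPM in WT lungs and 49.4, 404.5 and 144.6 CPM in null lungs, a log2 difference of 0.41 with an SE of 1.23. Ahsg went the same way, with 139.2, 8.11 and 13.3 CPM in WT and 31.3, 125.2 and 43.2 CPM in null lungs (0.31, SE 1.14). Without null lung 1 the differences were 0.87 (SE 1.07) and 0.65 (SE 1.06). For such genes a difference between genotypes was not detectable in these libraries.

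The genes with higher lung levels relative to liver did not pass either. Trf, the highest of them, had 895.5, 669.9 and 769.2 CPM in WT lungs and 172.0, 1644 and 1429 CPM in null lungs (0.48, SE 0.74, edgeR adjusted p = 0.718). C6 had 43.6, 38.6 and 22.6 CPM in WT and 0.265, 127.8 and 54.9 CPM in null lungs (0.80, SE 1.42, edgeR adjusted p = 0.755). Both were lowest in null lung 1, the library with low alveolar markers, and highest in the other null lungs. Without null lung 1, Trf and C6 were the 2 genes called of 41 tested, at 0.98 (SE 0.14, adjusted p = 0.00226, edgeR) and 1.39 (SE 0.37, adjusted p = 0.0226, edgeR), beside 37.0% of all genes called in that fit.

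Serping1 had 199.4, 198.8 and 210.7 CPM in WT lungs and 122.9, 191.1 and 174.0 CPM in null lungs (−0.32, SE 0.19, edgeR adjusted p = 0.345). It was the only one of the 39 in which the genotypes did not overlap, beside 36.1% of all genes tested. C3 had 631.5, 365.3 and 418.1 CPM in WT and 275.7, 498.1 and 351.1 CPM in null lungs (−0.33, SE 0.31). Pros1 had 122.5, 131.6 and 123.0 CPM in WT and 68.6, 130.9 and 107.0 CPM in null lungs (−0.30, SE 0.24), and C2 had 49.0, 26.7 and 31.8 CPM in WT and 23.0, 36.5 and 24.5 CPM in null lungs (−0.36, SE 0.30). Null lung 1 was the lowest lung for each of these 4 genes, and without it the differences were −0.15 (SE 0.10) for Serping1, −0.15 (SE 0.25) for C3, −0.080 (SE 0.11) for Pros1 and −0.24 (SE 0.27) for C2, none of them called. Masp1, a gene of low level in lung, was high in that library alone, with 11.7 CPM against 1.62 to 1.97 CPM in the other 5 lungs.

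The effect of the genotype was compared between the tissues as an interaction in all 12 libraries. None of the 43 genes passed (edgeR), beside 0.371% of all genes tested, 1 had an unadjusted p under 0.05, and DESeq2 called 0, beside 3.93% of all. The gene under 0.05 was C2, higher in null liver and lower in the mean of null lungs, with a difference between the effects of −0.93 (SE 0.34, unadjusted p = 0.0204 and adjusted p = 0.269, edgeR). Without null lung 1 none of the 43 was called and C2 stood at −0.79 (SE 0.34), and without null liver 1 none was called and C2 stood at −0.965 (SE 0.38). Hence the calls made in liver alone are not shown to differ from lung.

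Other genes of the same pathways were counted in the same fits. Of 22 other coagulation genes, 4 passed in liver (18.2%, beside 26.9% of all genes), all higher in null: Thbd, thrombomodulin of the vessel wall (1.47, SE 0.28), A2m, a broad protease inhibitor (1.04, SE 0.27), Vwf, the platelet-binding multimer of endothelium (0.72, SE 0.19), and Pzp, a relative of A2m (0.54, SE 0.15). Pzp was chosen after its value was seen. Without null liver 1, Thbd (1.66), A2m (1.15) and Vwf (0.85) were called and Pzp was not (0.49, adjusted p = 0.0716, edgeR). Of 22 other complement genes tested, 3 passed (13.6%). Fcnb, a ficolin of myeloid cells, was higher (0.97, SE 0.20), as was Hc, complement C5 (0.47, SE 0.11), and Cd46 was lower at under 1 CPM (−1.22, SE 0.33). Without null liver 1, Fcnb (0.83) and Hc (0.51) were called and Cd46 was not (−1.06, adjusted p = 0.0876, edgeR). C5 starts the pore that C8b, C8g and C9 complete, and WT livers averaged 467 ± 23.9 CPM for it and null livers 645.3 ± 31.3 CPM (SD, n = 3 each).

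Among 6 genes of the vitamin K cycle, which supplies the carboxylation of F2, F7, F9, F10, Proc and Pros1, 2 were called lower in null liver (33.3%). Of all genes, 26.9% were called in either direction and 13.4% lower. Vkorc1l1, a vitamin K epoxide reductase, averaged 47.1 ± 4.29 CPM over WT livers and 20.2 ± 1.15 CPM over null livers (−1.22, SE 0.10, edgeR adjusted p = 0.00201). Ggcx, the carboxylase, was at 0.62 (SE 0.20, edgeR adjusted p = 0.0520) and Vkorc1, the main reductase, at 0.29 (SE 0.11, edgeR adjusted p = 0.0913), both named after their values were seen. Without null liver 1, Vkorc1l1 stood at −1.26 and was called, as was Ggcx at 0.77 (SE 0.18, adjusted p = 0.0181, edgeR). With all lung libraries, Vkorc1l1 was also the only gene of these lists called in lung. It had 71.3 ± 3.50 CPM in WT and 33.3 ± 2.68 CPM in null lungs (−1.10, SE 0.13, edgeR adjusted p = 0.04997). Its call held in 1 of 6 fits with a library left out, the fit without null lung 1. In that fit more genes of the lists were called, beside 37.0% of all genes. The largest in each direction were A2m (1.55) and Thbd (−1.16) of coagulation and C7 (1.29) and C3ar1 (−1.73) of complement. Among the hepatocyte transcription factors they were Cebpa (0.95) and Foxa2 (−0.68).

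Of 15 hepatocyte transcription factors tested in liver, 6 passed (40.0%, beside 26.9% of all genes). Nr5a2 and Rxra, nuclear receptors of liver genes, were higher, at 0.62 (SE 0.13) and 0.48 (SE 0.15). Prox1, a homeobox factor of liver growth, was lower at −1.33 (SE 0.17), Nr1i3, the xenobiotic receptor CAR, at −0.91 (SE 0.20), and Nr1h4, the bile acid receptor, at −0.77 (SE 0.11). These 5 were also called without null liver 1, at 0.69, 0.55, −1.21, −0.94 and −0.80 in that order. Of the 9 genes with a GTTAAT match, C1ra, C8b and F2 were called higher in null liver, beside 11 of the 43 and 13.5% of all genes. Each of these calls held in 1 of 6 fits with a library left out. Fga, Fgb, F13b, Alb, Vtn and C8a were not called, and 0 were called lower, beside 13.4% of all genes. A link between the motif and the genotype was not tested.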

How the data were processed

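The authors sequenced polyadenylated RNA of 12 samples and deposited raw counts, whole reads per gene symbol and library, without normalization. The processing notes of the labels name FastQC, STAR 2.5.2a, DESeq2 and mm10. Whether counting used the strand is not given in the sources used here. As deposited, 27 gene names read as dates, and 0 other columns of per-sample values were present.

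All tests on these counts used edgeR 4.0.16 under R 4.3.3 (filterByExpr, TMM factors, quasi-likelihood test, Benjamini-Hochberg adjustment over all genes tested). Genes at an adjusted p under 0.05 and at least 1.2-fold were called. Each SE is the log2 difference over the square root of F. CPM within a comparison are TMM-scaled, and sums over lists, percentages of liver and Man1a2 use total counts. TPM used exon lengths of GENCODE M21, which gave a length for 95.6% of genes and all 43 members. RefSeq promoters were searched in Python 3.11.15. Each fit was tested on simulated data first.

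Same-numbered WT livers and WT lungs deviated together (correlations 0.211, 0.19 and 0.143), as did null ones (0.447, 0.36 and 0.383). Null liver 2 with null lung 3, and null liver 3 with null lung 2, did so too (0.235 and 0.199). Both null libraries numbered 1 held muscle markers. The labels do not state that numbers pair tissues. The reported tests used no pairing and treat all libraries as independent, and pairing by number is only an alternative. Alternatives were other scalings and filters, DESeq2 1.42.0, the replicate block, 1 fit of all libraries and leaving out each library. Where libraries are not stated to be separate cultures or litters, p-values measure the spread between these libraries, and intervals and floors of 3 reads cover counting error only. With 3 against 3, an exact permutation test cannot go below p = 0.1.

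The members and all gene lists were chosen with earlier results of these data known. Named with values were Man1a2, every called member, the 6 most abundant uncalled members in liver, the 8 most abundant in lung, the 10 smallest and 6 largest ratios of liver to lung, and up to 3 called genes per direction of each other list. Other genes were named after their values were seen, and some genes of these lists are not reported here.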

Additional observations from a re-analysis of the deposited data

How the results depend on the processing

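In liver, 12 members were called, beside 26.9% of all genes. They fell to 5 with upper-quartile factors (28.6% of all genes), 6 with at least 1 count in all (17.2%) and 6 with the replicate block (23%). When scaled to hepatocyte genes there were 3 (9.88%), and with total counts, chosen after seeing the data, 7 (23.5%). The fit of all 12 libraries called 0 (11.9% of all genes), with 4 at an unadjusted p under 0.05. Leaving out each library gave 1 to 10, beside 11.3% to 23.8% of all genes. Other settings gave 10 to 16, beside 26.9% to 31.8% of all genes. Other coagulation genes moved from 4 to 9 with DESeq2 and 2 in the fit of all libraries (0 to 5 with a library left out), other complement genes from 3 to 1 in that fit and 1 when scaled to hepatocyte genes (0 to 4), vitamin K genes from 2 to 1 when so scaled (1 to 2), and transcription factors from 6 to 0 in the fit of all libraries and 2 when so scaled (3 to 7). Ahsg turned to 0.013 when so scaled and ranged from −0.20 to 0.045 with a library left out, and Trf from −0.032 to 0.25.

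In lung, members called ranged from 0 to 2 with a library left out. The vitamin K count of 1 was 0 with DESeq2 size factors, with at least 1 count in all and with the replicate block (0 to 1 with a library left out). Other coagulation genes moved from 0 to 3 with DESeq2, 1 with at least 10 counts, 2 in the fit of all libraries and 1 with total counts (0 to 7), other complement genes from 0 to 4 and 3 with DESeq2 and that fit (0 to 8), and transcription factors stayed at 0 but for 0 to 5. Those upper values arose without null lung 1, where 37.0% of all genes were called. Of all genes, 15.7% were called with DESeq2, 14.1% in the fit of all libraries, 1.46% with at least 10 counts and 2.06% with total counts. Alb ranged from −0.63 to 2.76, Ahsg from −0.52 to 2.64 and C6 from −0.34 to 1.39, and C6 was −0.043 with the replicate block.

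Between tissues, all 43 members kept their call with the replicate block and with each library left out. The fit of all libraries called 42, and 32 were left to call with at least 10 counts in every library. The replicate block left the interaction at 0 members. Same-numbered WT and null libraries did not deviate together (−0.0357, −0.0357 and 0.168 in liver, −0.0353, −0.0531 and 0.111 in lung), so that block joins libraries that share only a number. The cause of these changes was not tested. Low counts left F9, Mbl2, C8a and C9 untested in lung.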
